A study of Homo sapiens with 11 samples.

Results

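The 39 genes described here code for proteins of the G2 phase and of mitosis, from the kinase that starts mitosis to the proteins that cut the dividing cell in 2. They were chosen by symbol from the 58699 genes of the authors' deposited table, and each of the 39 symbols was found there. RNA came from HCT116 cells, a line of human colorectal cancer. They received an siRNA to luciferase, called siLuc here and serving as control, or one to the RNA-binding protein Staufen1, called siStau1. Each arm received the solvent DMSO or decitabine (DAC), a nucleoside that is built into DNA and lowers its methylation, given at 500 nM for 5 days. The total RNA libraries form 4 groups of 2: siLuc with DMSO or DAC, and siStau1 with DMSO or DAC. All groups share the cell line and an siRNA transfection, and no untransfected group was analysed here. The labels do not say whether the 2 libraries of a group came from separate cultures. The table holds 1 value per gene and group, in FPKM (fragments per kilobase of transcript and per mapped fragments). How the authors scaled the libraries to each other is not given in the sources used here, and every ratio below depends on it. No spread between libraries and no depth can therefore be stated. Where 4 values follow each other below, they stand for siLuc DMSO, siLuc DAC, then siStau1 DMSO, siStau1 DAC.

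Cells make most mitotic proteins late in the cell cycle. Cyclin A and B proteins with CDK1 drive entry into mitosis, the Aurora and Polo kinases build the spindle, and the kinetochore ties each chromosome to it. The spindle checkpoint holds the anaphase-promoting complex, an enzyme that marks proteins for destruction, until all chromosomes are attached. Securin and cyclin B are then destroyed and the chromosomes part. Many of these genes are transcribed together. In resting cells and after p53 activation, repressor complexes that bind a promoter element called the CHR keep them low, while MYBL2 and FOXM1 activate them in G2, and the factor NF-Y binds CCAAT boxes nearby.

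Those letters were looked up first, in RefSeq promoter windows on GRCh38.p14 that run from 250 bases before to 50 bases after each start. Windows were found for 33 of the 39 genes. AURKA, BUB3, BIRC5, UBE2C, TTK and TPX2 were not matched. The CHR was searched with the letters TTTGAA, with TTCAAA and with TTCGAA. The CCAAT box was searched with CCAAT and with ATTGG. This covers both strands, and each element was searched on its own, so letters of the 2 may overlap. CHR letters were in the windows of 25 of the 33 genes. By window, 70.0% of the 40 windows of these genes held them, against 16.4% of all 35116 windows. CCAAT letters were in 27 of the 33 genes and in 77.5% of their windows, against 34.6% of all windows. Both were found in 63.6% of the 33 genes, against 7.28% of 14896 protein-coding genes with a window. A match of letters is a description and not a binding site.

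The 250 bases before the start are printed for 4 genes, all on the + strand, with matched letters in capitals. These are RefSeq starts, while the gene coordinates given further below come from GENCODE, and the 2 can differ. The printed HMMR window lies within the gene coordinates given for HMMR below. HMMR (chr5:163460382-163460631) was the gene furthest below its level in DMSO after DAC. CCNB2 (chr15:59104896-59105145) stands for the cyclin B genes. PLK1 (chr16:23678639-23678888) and CDC20 (chr1:43358731-43358980) are shown because they hold the same letters and were higher with DAC.
HMMR: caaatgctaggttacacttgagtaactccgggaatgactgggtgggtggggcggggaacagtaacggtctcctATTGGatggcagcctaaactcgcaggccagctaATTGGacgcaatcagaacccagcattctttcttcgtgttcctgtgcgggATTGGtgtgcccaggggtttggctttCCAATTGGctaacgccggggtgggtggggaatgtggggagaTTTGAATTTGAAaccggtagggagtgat
CCNB2: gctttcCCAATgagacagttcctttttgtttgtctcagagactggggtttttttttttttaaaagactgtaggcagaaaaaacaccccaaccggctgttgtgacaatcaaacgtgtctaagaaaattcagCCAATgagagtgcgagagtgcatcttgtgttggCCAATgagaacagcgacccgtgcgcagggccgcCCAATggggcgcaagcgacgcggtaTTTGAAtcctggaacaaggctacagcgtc
PLK1: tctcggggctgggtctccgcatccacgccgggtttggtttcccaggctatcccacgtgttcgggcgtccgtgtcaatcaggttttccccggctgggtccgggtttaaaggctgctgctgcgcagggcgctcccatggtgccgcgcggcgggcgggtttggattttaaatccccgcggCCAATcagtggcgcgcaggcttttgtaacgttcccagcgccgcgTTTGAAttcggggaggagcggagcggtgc
CDC20: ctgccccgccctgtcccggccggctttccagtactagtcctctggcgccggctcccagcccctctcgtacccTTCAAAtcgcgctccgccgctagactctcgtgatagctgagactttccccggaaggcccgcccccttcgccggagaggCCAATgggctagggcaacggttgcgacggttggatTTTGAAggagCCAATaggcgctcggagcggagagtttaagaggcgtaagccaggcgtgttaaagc
HMMR has TTTGAA at 28 to 23 and again at 22 to 17 bases before its start. CCNB2 and PLK1 each have it at 29 to 24 bases before the start. CDC20 has TTTGAA at 65 to 60 bases and TTCAAA at 178 to 173 bases before the start. CCAAT letters were counted 5 times in HMMR, 4 times in CCNB2, once in PLK1 and 2 times in CDC20, and 2 of the 5 in HMMR overlap each other.

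The targeted gene and the identity of the cells were checked before the results. STAU1 mRNA was at 35.5 and 33.7 FPKM in siLuc (DMSO, then DAC) and at 29.98 and 27.1 in siStau1. The authors' deposited table called neither knockdown difference, so siStau1 below names the label. Of 9 markers of colon epithelial cells, 6 or 7 reached 1 FPKM in each group, among them EPCAM, KRT8, KRT18 and CDH1. VIL1 and CDX1 stayed under 1 FPKM in all 4 groups, with CDX1 at 0 in both DMSO groups. The summed level of these 9 was 2065 and 1703 FPKM with DMSO and 6787 and 4918 with DAC, most of it KRT8 and KRT18. EPCAM went the other way, at 259, 117, 338 and 179 FPKM. CDX2 had no common direction, at 7.31, 7.11, 2.76 and 7.47 FPKM, and the other markers were higher with DAC in both arms. Markers of blood cells, fibroblasts and endothelium summed to at most 2.61, 9.502 and 1.57 FPKM, highest in a DAC group for each list, and PTPRC, COL1A2, LUM and CDH5 were at 0 in both DMSO groups. The sum of FPKM over all genes was 1129080, 1793610, 967548 and 1491060, and 3 genes held from 26.6% to 41.7% of it. The part of these sums and markers in the values below was not tested.

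All 39 genes were at 1 FPKM or more in every group and all were tested in every comparison. Their median was 60.8 FPKM with DMSO and 30.8 with DAC in siLuc, and 85.5 and 45.7 FPKM in siStau1. The median protein-coding gene stood between 13.6 and 14.0 FPKM in the 4 groups. The lowest value was ASPM in siLuc DAC, at 3.12 FPKM, and the highest CCNB1 in siLuc DMSO, at 406 FPKM. The 4 groups fell into the same order for most of the genes. For 34 of 39, both DAC groups lay below both DMSO groups, which held for 35.3% of protein-coding genes. PLK1, CDC20 and UBE2C had both DAC groups above both DMSO groups, and CCNB1 and AURKB had neither order. In 29 genes the order was siStau1 DMSO, siLuc DMSO, siStau1 DAC and siLuc DAC from high to low, an order that 22.1% of protein-coding genes had. Neither share was matched on GC content. CCNA2 has the median GC content of the 39 genes. Protein-coding genes in its GC bin, described below, had median DAC ratios (log2) of -0.5 in siLuc and -0.41 in siStau1. Their median ratios of siStau1 over siLuc were 0.2 with DMSO and 0.24 with DAC, the same directions. These shares over genes of like GC content were not computed. Since RNA was taken from whole cultures, fewer cells in G2 or mitosis and less RNA per such cell cannot be told apart.

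**Figure D1:**
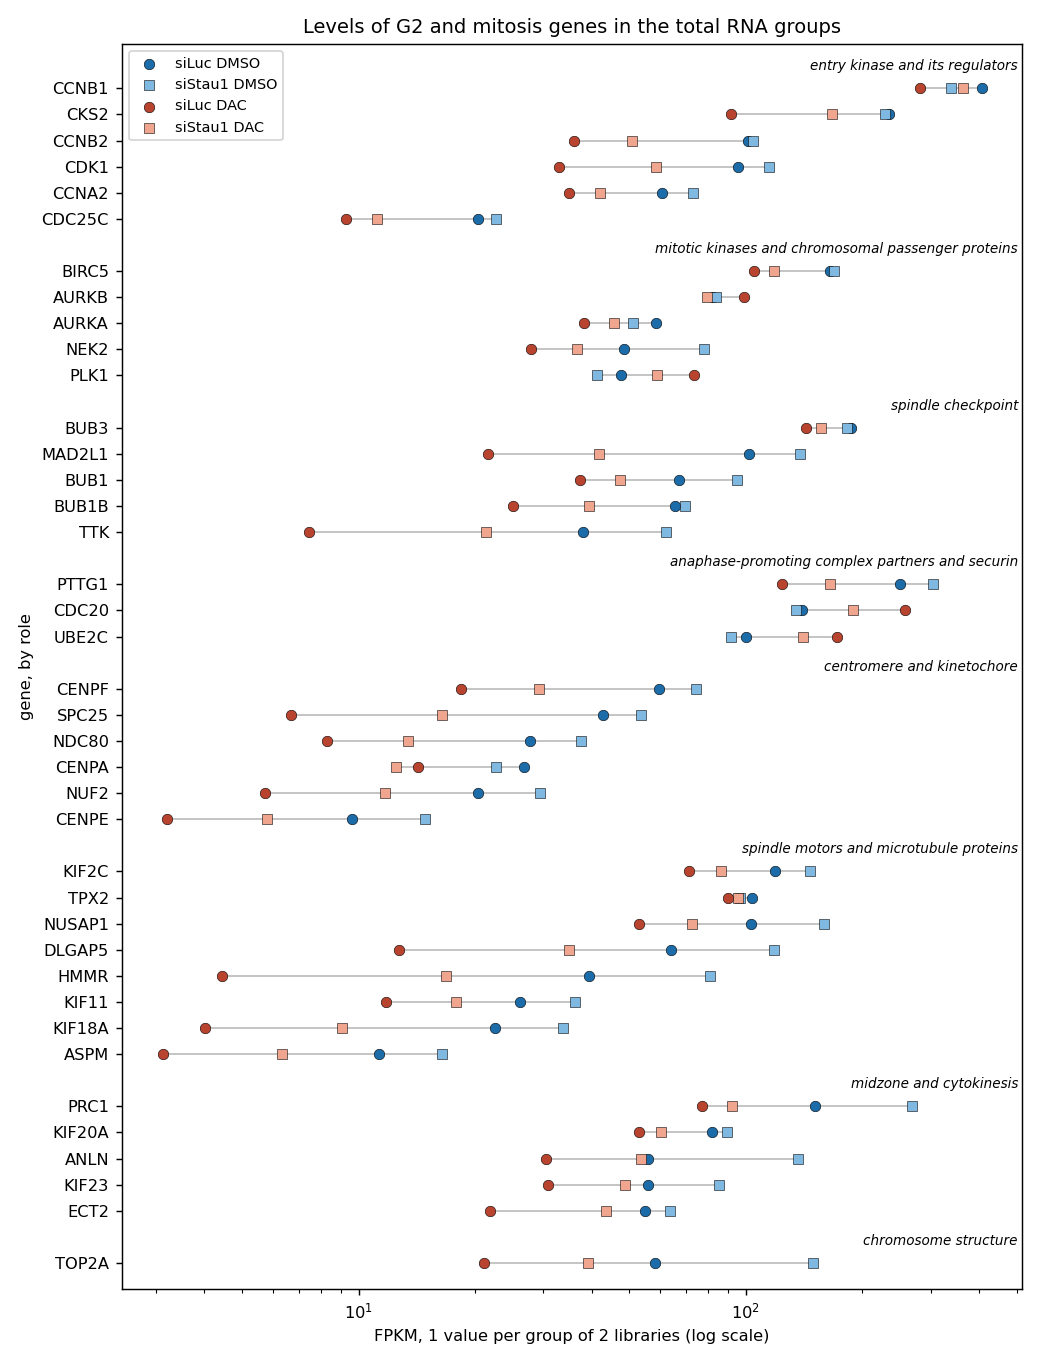
Level of each of the 39 genes in FPKM (log axis), 1 point per group of 2 libraries, sorted by role and by level in siLuc DMSO. The siLuc DAC point (dark red) is the lowest of the 4 in 34 genes and the siStau1 DMSO point (light blue) the highest in 29.

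The first comparison asks how DAC acts on these genes in control cells. In siLuc, 17 of the 39 genes fell with DAC and 1 rose, which is the authors' deposited table read at a limit of 0.05 on its q-value. That is 43.6% called lower, where the table called 4.78% of all 17504 tested genes lower, 8.71% higher and 13.5% in either direction. The median log2 ratio of the 39 genes (FPKM plus 0.1 in each group) was -1.01, with quartiles of -1.63 and -0.70, against 0.077 over 10953 protein-coding genes. A ratio of -1 or less was reached by 20 of the 39 genes and by 15.2% of the protein-coding genes.

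Of the 6 genes of mitotic entry, 3 fell with DAC in siLuc, and the other 3 were below their DMSO value without a call. CDK1, the kinase that drives entry, was at 95.4, 32.9, 114 and 58.5 FPKM. It fell with DAC in siLuc by 1.53 on the log2 scale (q = 0.00632 in the authors' deposited table). CCNB2, cyclin B2, stood at 101, 35.999, 104 and 50.8 FPKM, and fell by 1.49 (q = 0.0372 in the authors' deposited table). CKS2, a small protein that binds CDK1, stood at 235, 91.6, 228 and 167 FPKM and was 2.56-fold lower (q = 0.00415 in the authors' deposited table). CCNB1, cyclin B1, the main partner of CDK1, kept most of its level. It had 406, 282, 339 and 364 FPKM (q = 0.472 in the authors' deposited table). CCNA2, cyclin A2, and CDC25C, the phosphatase that activates CDK1, had log2 ratios of -0.79 and -1.12 without a call (-0.29 and -1.14 after the GC-centring described below). The class had a median of -1.24 over 6 genes.

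None of the 5 mitotic kinases and chromosomal passenger proteins was called in siLuc by the authors' deposited table, where 2 of them, BIRC5 and NEK2, had an unadjusted p under 0.05. Their median log2 ratio was -0.61. PLK1, the Polo kinase, was at 47.5, 73.5, 41.3 and 59.0 FPKM, with a ratio of 0.63 (q = 0.498 in the authors' deposited table). AURKB, the kinase of the chromosomal passenger complex, was at 82.3, 98.8, 83.8 and 79.3 FPKM. BIRC5, or survivin, which belongs to the same complex, was at 165, 105, 168 and 118 FPKM. Survivin thus had the lower level with DAC in both arms, while Aurora B had no common direction before GC-centring. After the GC-centring described below, Aurora B was at -0.29 in siLuc and -0.52 in siStau1, and survivin at -0.96 and -0.73. All 5 genes of the class were then below 0 in both arms. AURKA, which works at the spindle poles, and NEK2, a kinase of the centrosome, had ratios of -0.61 and -0.79.

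In the spindle checkpoint, 3 of 5 genes fell. TTK (ENSG00000112742.9, chromosome 6, 80003887 to 80042527 on GRCh38), the kinase at the top of the checkpoint, stood at 37.9, 7.46, 62.0 and 21.4 FPKM, 5.03-fold lower with DAC in siLuc (q = 0.00162 in the authors' deposited table, the smallest it holds). MAD2L1, the subunit that captures CDC20, stood at 102, 21.6, 138 and 41.7 FPKM and was 4.71-fold lower (q = 0.00162 in the authors' deposited table). BUB1B, the BUBR1 kinase-like partner of MAD2L1, stood at 65.6, 25.05, 69.5 and 39.4 FPKM (q = 0.0228 in the authors' deposited table). BUB3, which carries BUB1 and BUB1B to the kinetochore, differed least among the 5. It was at 187, 143, 183 and 157 FPKM, a ratio of -0.39. BUB1 had a ratio of -0.85 (q = 0.0609 in the authors' deposited table).

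The partners of the anaphase-promoting complex had higher values with DAC in both arms, and their substrate lower ones, with few calls. CDC20 (ENSG00000117399.13, chromosome 1, 43358955 to 43363203 on GRCh38), which activates the complex at anaphase, was at 139, 258, 134 and 189 FPKM. It was the 1 gene of the 39 that rose, by 0.89 on the log2 scale (q = 0.0445 in the authors' deposited table). UBE2C, the enzyme that hands ubiquitin to the complex, was at 99.9, 172, 91.5 and 140 FPKM, a ratio of 0.78 that was not called (q = 0.122 in the authors' deposited table). PTTG1, or securin, the inhibitor of separase that the complex destroys, stood at 250, 124, 304 and 165 FPKM and fell by 1.01 (q = 0.0272 in the authors' deposited table). In siStau1 that table called none of them, with q = 0.432 for CDC20, 0.303 for UBE2C and 0.0937 for PTTG1.

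All 6 centromere and kinetochore genes had lower values with DAC, with a class median of -1.71, and 3 were called. NDC80, NUF2 and SPC25 code for subunits of the complex that grips microtubules. NDC80 stood at 27.8, 8.30, 37.6 and 13.4 FPKM (q = 0.00732 in the authors' deposited table), and NUF2 at 20.3, 5.75, 29.4 and 11.7 FPKM (q = 0.0343). SPC25 stood at 42.8, 6.68, 53.8 and 16.4 FPKM, which is 6.33-fold lower in siLuc DAC. The authors' deposited table did not call it, with a q-value of 0.132. Its fold was the second largest of the 39, so a large fold did not always come with a call. CENPF, a large protein of the outer kinetochore, stood at 59.7, 18.4, 74.2 and 29.3 FPKM (q = 0.00162 in the authors' deposited table). CENPA, the histone H3 variant of the centromere, and CENPE, a kinetochore motor, had ratios of -0.91 and -1.56 without a call.

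Of the 8 spindle motors and microtubule proteins, 5 were called in siLuc, all lower. In classes of more than 1 gene, the share called lower was 62.5% here, 60% in the checkpoint and 50% each in entry and the kinetochore. It was 33.3% for the partners and substrate of the anaphase-promoting complex, 20% for the midzone and 0% for the kinases. In genes of like GC content, described below, these shares were between 2.37% and 14.4%. HMMR (ENSG00000072571.19, chromosome 5, 163460203 to 163491945 on GRCh38), a protein that helps organise spindle poles, stood at 39.3, 4.43, 81.0 and 16.8 FPKM. It was 8.69-fold lower with DAC in siLuc (q = 0.00162 in the authors' deposited table). KIF18A (ENSG00000121621.6, chromosome 11, 28020620 to 28108308 on GRCh38), a motor that limits chromosome movement at the spindle, stood at 22.6, 4.01, 33.7 and 9.04 FPKM, 5.51-fold lower (q = 0.00162 in the authors' deposited table). DLGAP5 (ENSG00000126787.12, chromosome 14, 55148112 to 55191678 on GRCh38), which stabilises kinetochore fibres, stood at 64.1, 12.7, 118 and 34.9 FPKM, 5.02-fold lower (q = 0.00162 in the authors' deposited table). In each of these 3 genes siStau1 DAC lay between siLuc DAC and both DMSO groups. ASPM, a spindle pole protein, stood at 11.3, 3.12, 16.4 and 6.32 FPKM (q = 0.00162 in the authors' deposited table). KIF11, the motor that separates the poles, stood at 26.0, 11.8, 36.3 and 17.9 FPKM (q = 0.00732 in the authors' deposited table). TPX2, the activator of Aurora A, differed least of the 8. It was at 104, 90.1, 96.5 and 95.2 FPKM, a ratio of -0.20. NUSAP1 and KIF2C had ratios of -0.96 and -0.74 without a call.

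Of the 5 genes of the spindle midzone and cytokinesis, ECT2 fell. ECT2, which activates the RhoA switch of the cleavage furrow, stood at 54.8, 21.8, 63.6 and 43.5 FPKM (q = 0.00162 in the authors' deposited table). PRC1, which bundles midzone microtubules, was at 151, 77.1, 269 and 92.4 FPKM (q = 0.202 in the authors' deposited table). ANLN, or anillin, a scaffold of the contractile ring, was at 56.1, 30.5, 136 and 53.5 FPKM (q = 0.0954 in the authors' deposited table). Neither of these 2 was called, and in both the siStau1 DMSO value stood well above the other 3. KIF23 and KIF20A, motors of the midzone, had ratios of -0.86 and -0.63. TOP2A, the topoisomerase that untangles sister chromosomes, stood at 58.4, 21.1, 149 and 39.2 FPKM and fell by 1.46 in siLuc (q = 0.00162 in the authors' deposited table).

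Transcript GC content had to be set beside these ratios, because over all protein-coding genes the ratio was higher at higher GC content. In siLuc the median log2 ratio of DAC over DMSO went from -0.94 in the lowest of 20 GC bins to 1.20 in the highest. The longest transcripts of the 39 genes had a median GC content of 42.1%, against 47.9% for 10686 protein-coding genes, and 30 of the 39 lay below that median. The range among the 39 ran from 35.3% in CENPE to 57.9% in CDC20. Among the 39, the log2 ratio and GC content had a Spearman rho of 0.77, a description over genes that share the same libraries. The genes of highest GC content, CDC20, PLK1 and AURKB, were those with ratios above 0, together with UBE2C.

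**Figure D2:**
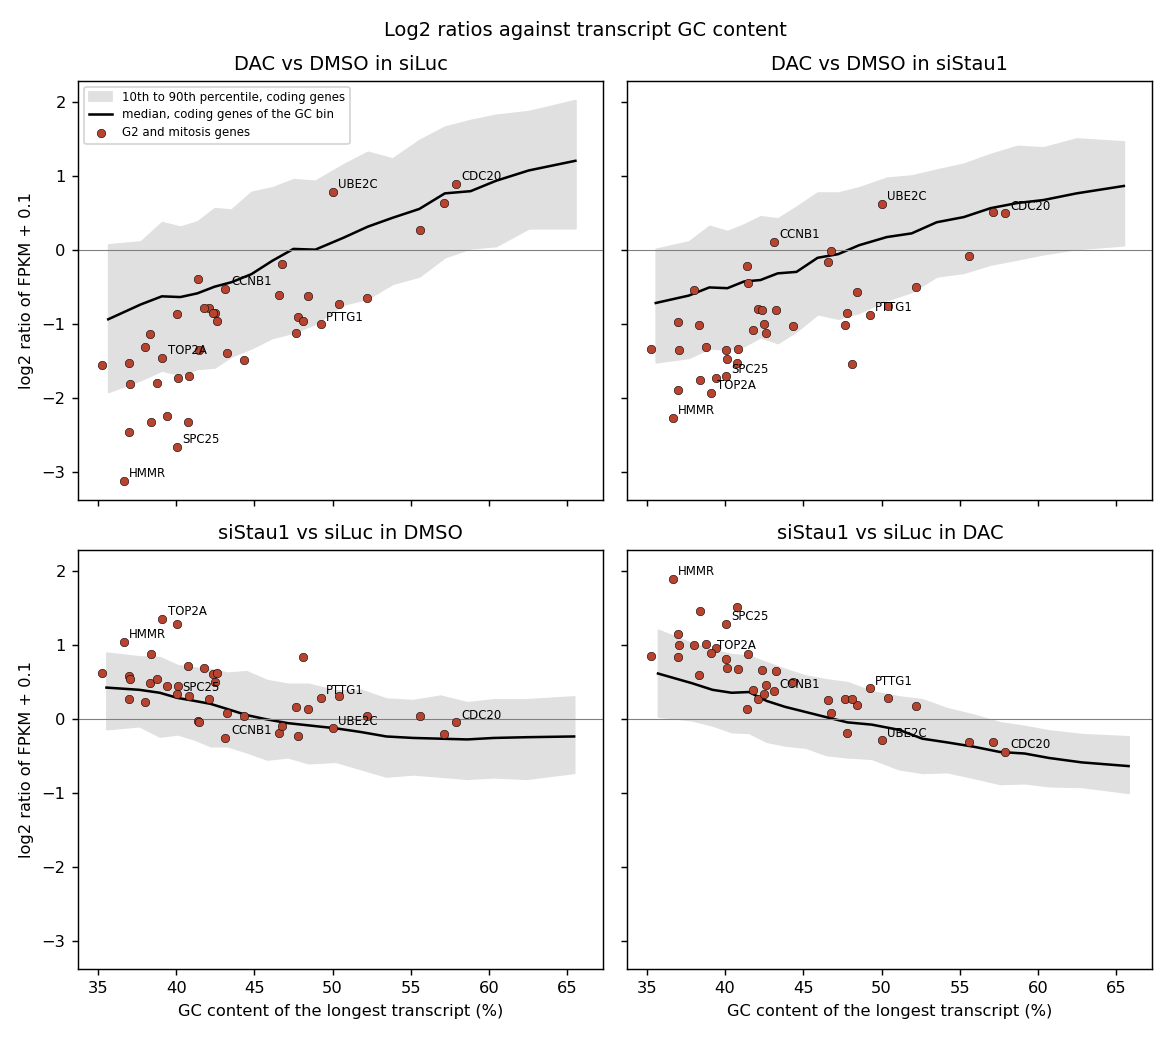
Log2 ratio of FPKM plus 0.1 (vertical axes) against GC content of the longest transcript in percent (horizontal axes) for 4 comparisons, with the 39 genes as red points. The black line is the median and the grey band the range from the 10th to the 90th percentile of protein-coding genes in 20 GC bins, and most red points lie below the line in both DAC panels and above it in both knockdown panels.

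Each ratio was then centred on the median of the protein-coding genes in the same GC bin. The median of the 39 genes in siLuc became -0.79 in place of -1.01, and 36 of 39 were below 0. A centred ratio of -1 or less was reached by 13 of 39, against 9.29% of protein-coding genes, and 14 of 39 were at or under the 10th percentile of their own bin. HMMR ranked 2 from the bottom among 546 other genes of its bin, with a centred ratio of -2.18. SPC25 ranked 4 among 547, at -2.02. KIF18A, TTK, MAD2L1 and DLGAP5 had centred ratios of -1.72, -1.69, -1.6 and -1.58. Genes in the same GC bins were called lower at a rate of 11.0%, against 43.6% of the 39. Such rates, here and below, were not matched on level. In siLuc DMSO, 37 of the 39 genes stood above the median protein-coding gene. Matching on GC content and level together, added after seeing the data, gave a centred median of -0.57 in siLuc, with 32 genes below 0.

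Centring changed the standing of some genes. CDC20, which rose, had a centred ratio of 0.13 and the 59.0th percentile of its bin, so its ratio was close to that of genes of like GC content. In siStau1 the centred ratio of CDC20 was -0.14. PLK1 and CCNB1 were at -0.13 and -0.09. UBE2C, below CDC20 before centring, was the highest of the 39 after it, at 0.62, and BUB3 went to 0.20. CCNB2 went from -1.49 to -1.16, CDC25C from -1.12 to -1.14 and BIRC5 from -0.65 to -0.96. KIF11 went from -1.14 to -0.39 and CENPE from -1.56 to -0.61. By class, the centred median was -1.10 for the kinetochore, -0.99 for spindle proteins, -0.95 for the checkpoint, -0.78 for entry, -0.58 for the midzone, -0.29 for the kinases and 0.13 for the 3 partners and substrate of the anaphase-promoting complex. The 25 genes with CHR letters had a centred median of -0.95 and the 8 without them -0.45, and the ranges overlapped, from -2.18 to 0.13 and from -1.02 to -0.09. In siStau1 the same medians lay closer together, at -0.79 and -0.63. For CCAAT letters the order was the other way round, with -0.79 for the 27 genes with them and -0.93 for the 6 without in siLuc, and -0.72 and -0.82 in siStau1. No test was made of these differences.

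**Figure D3:**
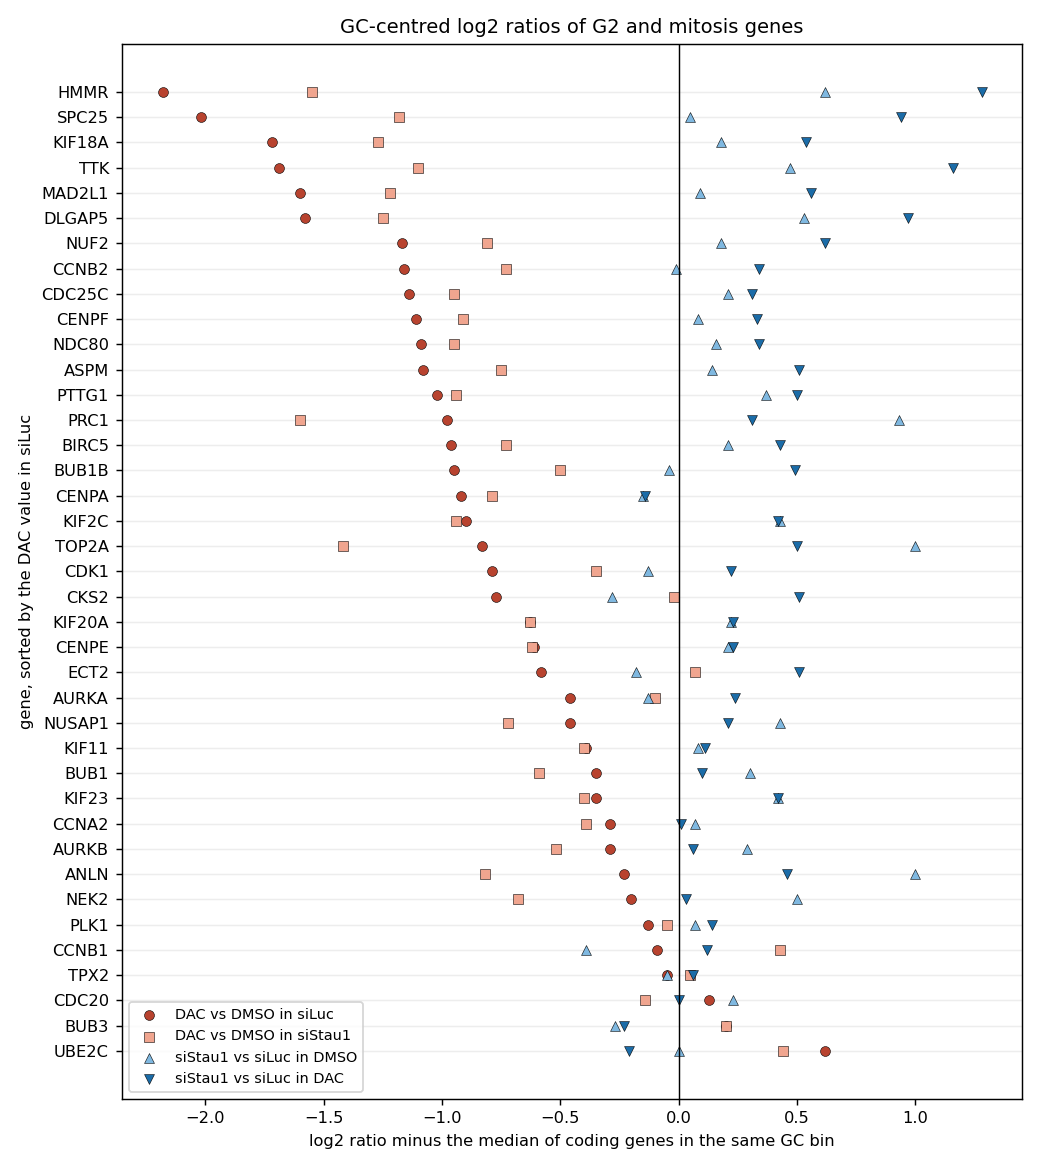
Log2 ratio minus the median of protein-coding genes in the same GC bin (horizontal axis) for each of the 39 genes, sorted by the DAC value in siLuc, 1 point per comparison. DAC points lie left of 0 in 36 genes in siLuc and 34 in siStau1, and knockdown points lie right of 0 in 28 genes in DMSO and 36 in DAC.

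The same question was asked in the siStau1 arm, which shares no group with the siLuc comparison. With DAC, 13 of the 39 genes fell and none rose by the authors' deposited table, 33.3% against 2.89% called lower among 16979 tested genes, 4.56% higher and 7.46% in either direction. No gene of the 39 was higher at an unadjusted p under 0.05 either, and 22 were lower at that limit. The share of all tested genes at that limit was not computed for any comparison, here or below. The median log2 ratio was -1.0, against 0.034 for protein-coding genes, and the GC-centred median was -0.72, with 34 of 39 below 0. HMMR was 4.81-fold lower, KIF18A 3.70-fold, DLGAP5 3.38-fold and MAD2L1 3.31-fold. Genes of the same GC bins were called lower at a rate of 6.32%.

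Of the genes called lower, 11 were called in both arms, 64.7% of the 17 in siLuc and 84.6% of the 13 in siStau1. They are CDK1, TTK, MAD2L1, NDC80, NUF2, CENPF, HMMR, KIF18A, DLGAP5, ASPM and KIF11, and none of them belongs to the midzone or the kinase class. The same overlap over all tested genes was not computed, so these shares are not shown to be particular to the 39 genes. The siLuc calls without a siStau1 call were BUB1B, CCNB2, CKS2, ECT2, PTTG1 and TOP2A. BUB1, another checkpoint kinase, and NEK2 were called in siStau1 alone, each with q = 0.0464 in the authors' deposited table. A call in 1 arm and not in the other does not show that the arms differ. TOP2A had the larger ratio in siStau1, at -1.93 against -1.46, yet missed the limit there (q = 0.0587 in the authors' deposited table). Across the 39 genes the ratios of the arms had a Spearman rho of 0.86, and 0.81 after GC-centring, again as a description over genes of shared libraries.

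Subtracting the siLuc ratio from the siStau1 ratio gave a median of 0.16 over the 39 genes, with 27 above 0. Over 10686 protein-coding genes the median was 0.01, with 5422 above 0. With GC-centred ratios the median of the 39 was 0.13, with 25 above 0, against 0.02 and 5488 for the protein-coding genes. SPC25 (0.95), CKS2 (0.91), HMMR (0.85), TTK (0.80), ECT2 (0.78) and CCNB1 (0.63) had the largest raw differences above 0. Their centred differences were 0.83, 0.75, 0.63, 0.58, 0.65 and 0.51. PRC1 (-0.57, centred -0.62), ANLN (-0.47, centred -0.59) and TOP2A (-0.46, centred -0.58) had the largest below 0. In those 3 genes the siStau1 DMSO level was high, at 269, 136 and 149 FPKM. The difference between the arms could not be tested with 1 value per group.

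The effect of the siStau1 label without DAC was asked next. None of the 39 genes was called in siStau1 DMSO against siLuc DMSO in the authors' deposited table, which called 0.466% of 15893 tested genes lower, 0.333% higher and 0.799% in either direction. At an unadjusted p under 0.05, 5 genes were higher in that table and 0 lower. They were HMMR, TTK, DLGAP5, TOP2A and ANLN, with q-values of 0.0512, 0.19, 0.196, 0.228 and 0.239. Without the share of all tested genes at that limit, this count has no background. The median log2 ratio of the 39 was 0.30, against -0.022 for protein-coding genes, and 0.18 after GC-centring. TOP2A and ANLN had the largest ratios, 1.35 and 1.28, and PRC1 had 0.83. CCNB1, CKS2 and BUB3 were at -0.26, -0.04 and -0.03. After centring, 28 genes were above 0 and 7 were at or over the 90th percentile of their bin, but these are levels without a replicate check.

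With DAC present, 4 of the 39 genes were higher in siStau1 than in siLuc by the authors' deposited table, and none was lower. That is 10.3%, where 0.434% of 17263 tested genes were called higher, 0.469% lower and 0.904% in either direction, and 1.12% of genes in the same GC bins were called higher. TTK rose from 7.46 to 21.4 FPKM (q = 0.00162 in the authors' deposited table). HMMR rose from 4.43 to 16.8 FPKM (q = 0.00917), DLGAP5 from 12.7 to 34.9 (q = 0.0165) and ECT2 from 21.8 to 43.5 (q = 0.0332), q-values of the same table. In all 4 the siStau1 DAC value stayed below both DMSO values. None of the 4 calls held when q-values were adjusted within this comparison alone. The median log2 ratio of the 39 was 0.50, against -0.09 for protein-coding genes, and 0.33 after GC-centring, with 36 of 39 above 0. HMMR was at the 99.8th percentile of its GC bin, with a centred ratio of 1.28, and TTK at the 99.5th of its bin, with 1.16. BUB3, UBE2C and CENPA were the 3 genes below 0 after centring, at -0.23, -0.21 and -0.14.

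Here too GC content and ratio ran together. Bin medians of protein-coding genes went from 0.61 in the lowest GC bin to -0.64 in the highest with DAC, and from 0.42 to -0.24 with DMSO, the reverse of the trend of DAC over DMSO. Among the 39 genes, rho between ratio and GC content was -0.85 with DAC and -0.60 with DMSO. The centred median of the 39 with DAC was 0.17 when GC content was taken from the coding sequence, in place of 0.33. The knockdown comparison with DAC shares siLuc DAC with the first comparison, so a low value in that group lowers the first ratio and raises this one. TTK, HMMR, DLGAP5 and ECT2 are each among the genes called lower with DAC in siLuc.

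Both agents together were compared with neither, siStau1 DAC against siLuc DMSO. Of the 39 genes, 2 fell and none rose in the authors' deposited table, 5.13% against 0.964% of 16909 tested genes called lower, 4.02% higher and 4.98% in either direction. Genes in the same GC bins were called lower at a rate of 1.89%. The 2 that fell were KIF18A, from 22.6 to 9.04 FPKM (q = 0.0228 in the authors' deposited table), and HMMR, from 39.3 to 16.8 FPKM (q = 0.0418). At an unadjusted p under 0.05 there were 10, all lower. MAD2L1 and NDC80 were just outside the limit, with q = 0.0521 and q = 0.0512 in the authors' deposited table. The median ratio was -0.54, against -0.009 for protein-coding genes, and -0.40 after GC-centring, with 32 of 39 below 0. Each group in this comparison also stands in 2 of the comparisons above.

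Other genes of the pathway were taken as whole lists. Of 80 further mitosis genes, 19 fell and 1 rose with DAC in siLuc, and 16 fell and none rose in siStau1, by the authors' deposited table. The shares called lower were 23.8% in siLuc and 20% in siStau1, against 9.85% and 5.76% of genes in the same GC bins and 4.78% and 2.89% of all tested genes. Their median log2 ratios were -0.71 and -0.64, and -0.38 and -0.39 after GC-centring, closer to 0 than those of the 39 genes. The gene that rose was NCAPH2, a condensin subunit, named like CKAP2, CEP55, CDT1 and PCNA below after its values were seen. The called genes of this list with the largest centred ratios were CENPQ, CENPH, KIF15, SMC2, DEPDC1 and CENPU. CENPH, an inner kinetochore protein, stood at 25.5, 4.10, 35.96 and 10.2 FPKM (q = 0.00162 and 0.0165 in the authors' deposited table). KIF15, a spindle motor, stood at 12.0, 1.92, 22.2 and 4.46 FPKM (q = 0.00162 and 0.00293 in the authors' deposited table). SMC2, a condensin subunit that compacts chromosomes, stood at 12.6, 2.15, 19.4 and 5.50 FPKM (q = 0.00525 and 0.00162 in the authors' deposited table). For siStau1 over siLuc with DAC, the same table called 4 genes of this list higher, DEPDC1, SMC2, CKAP2 and CEP55, and none lower. With DMSO it called none, and 8 had an unadjusted p under 0.05.

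The 15 subunits of the anaphase-promoting complex had counts of calls near the shares of genes of like GC content. By the authors' deposited table none fell in either arm, with 4 in siLuc and 1 in siStau1 at an unadjusted p under 0.05. Among genes in the same GC bins, 8.67% and 4.41% were called lower, shares that leave few calls among 15 genes. ANAPC2 rose in siLuc, from 7.59 to 20.4 FPKM (q = 0.0101 in the authors' deposited table). The 15 subunits had raw medians of -0.59 in siLuc and -0.16 in siStau1, with 10 and 11 of them lower. After GC-centring the medians were -0.09 and 0.03. Of 13 regulators of late cell cycle genes, CDKN1A and MYBL2 rose in siLuc and CDKN1A in siStau1 by that table, and none fell, with 3 and 2 at an unadjusted p under 0.05. The shares called higher were 15.4% and 7.69%, against 7.22% and 2.89% of genes in the same GC bins. CDKN1A, the p21 inhibitor of cyclin-dependent kinases and a p53 target, was at 51.1, 192, 47.5 and 163 FPKM (q = 0.00162 in both arms of the authors' deposited table). MYBL2 was at 40.6, 74.6, 29.8 and 52.3 FPKM (q = 0.0493 and 0.124 in the authors' deposited table), with a centred ratio of -0.05 in siLuc. FOXM1, the forkhead activator of G2 genes, was at 19.7, 30.6, 17.7 and 17.4 FPKM and was not called. CDKN1A thus had both DAC groups above both DMSO groups, opposite to 34 of the 39 genes. The part of CDKN1A in their levels was not tested.

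Genes of replication licensing and of the replication fork, called replication genes here, were set beside the mitosis genes. Of 40, 10 fell and CDT1, a licensing factor, rose with DAC in siLuc, and POLE2, PCNA and RRM1 fell in siStau1, by the authors' deposited table. The shares called lower were 25% in siLuc and 7.5% in siStau1, against 6.28% and 2.86% of genes in the same GC bins. Their centred medians of -0.55 and -0.58 were near their raw medians of -0.56 and -0.56, and their median GC content was 47.7%. RRM1, a subunit of the enzyme that makes deoxynucleotides, stood at 139, 34.97, 140.1 and 56.5 FPKM (q = 0.00917 and 0.00162 in the authors' deposited table). Calls of lower values with DAC thus also included replication genes.

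**Figure D4:**
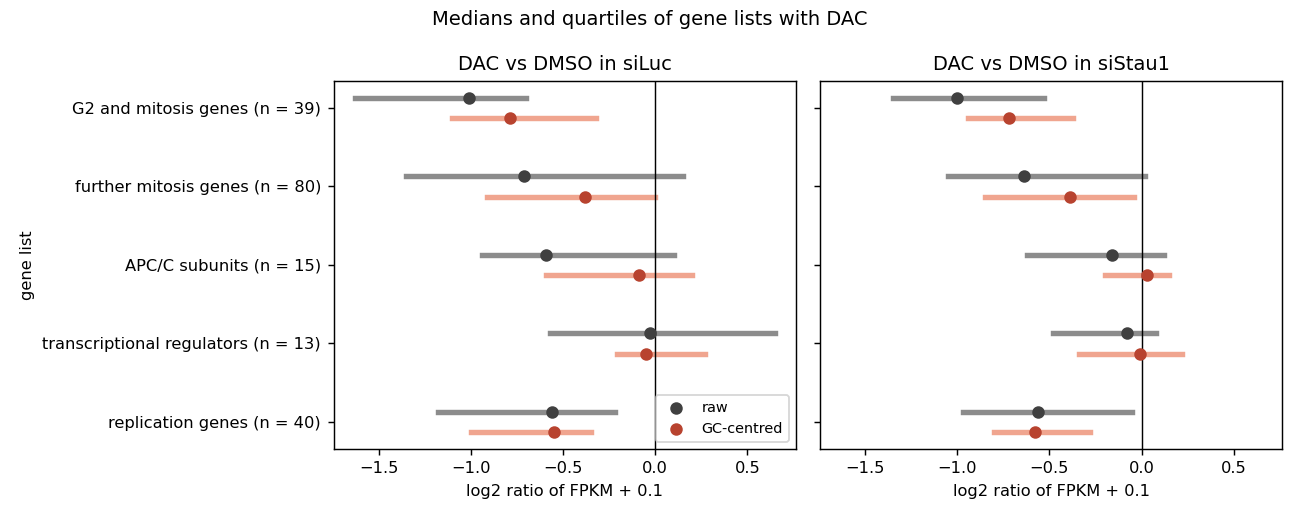
Median (point) and quartiles (bar) of the log2 ratio of DAC over DMSO for 5 gene lists, raw in grey and GC-centred in red, in siLuc and in siStau1. The 39 genes have the lowest medians in both arms, and the replication genes change least on centring.

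Some values are uncertain because reads may be shared. Pseudogene copies exist for 8 of the 39 genes, 13 in all, and 2 of the copies reached 1 FPKM, one of CDC20 at up to 12.6 FPKM and one of CCNB2. Genes on the opposite strand overlap 18 of the 39, with 10 such genes at 1 FPKM or more in 8 of them, up to 82.7 FPKM for EXOSC9 beside CCNA2. Genes on the same strand overlap 9 of the 39, with 5 such genes at 1 FPKM or more. The highest is RF00019 within TOP2A, at 89.1 FPKM in siLuc DMSO and listed at 0 in the other 3 groups. SLC35F6, at 6.49 to 17.4 FPKM, overlaps CENPA. Among the leading genes, KIF18A overlaps METTL15 and NUF2 overlaps RGS5. The antisense gene of HMMR was listed at 0 in all 4 groups. Whether counting used the strand is not given in the sources used here.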

How the data were processed

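Total RNA of 8 libraries in 4 groups was analysed. The 3 libraries of RNA bound by J2, an antibody to double-stranded RNA, have repeat tables without gene values and were not used here. The authors deposited 1 table in the Cuffdiff layout with 1 FPKM value per gene and group and, for 6 comparisons, a p-value and a q-value, per the file headers. The submitters' processing notes name HISAT2 2.1.0, featureCounts, Cuffdiff 2.2.1, Cuffnorm 2.2.1 and the build hg38, without roles. The libraries were made with stranded kits and ribosomal RNA depletion, per the labels' protocols. The deposited q-value equals the Benjamini-Hochberg value over all 102180 tests, with a largest gap of 5.3e-07, and its smallest value is 0.00162. All columns of samples were mapped. A planned limma fit needs values per library and was not made, so no p-value, SD or interval between conditions was computed, and calls are the authors' at a q-value under 0.05.

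Log2 ratios were computed from FPKM plus 0.1, which understates changes of low genes, with Python 3.11.15, pandas 2.3.3, numpy 2.4.6 and scipy 1.17.1. GC content came from each gene's longest transcript in GENCODE release 29 on GRCh38. The comparison genes were protein-coding, at 1 FPKM or more in each of the 2 groups compared, in 20 equal-sized GC bins. A centred ratio is the gene's ratio minus its bin's median, and its percentile is its place in that bin. The code was tested on simulated data.

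The members, role classes and lists were chosen with earlier results of these data known. Genes were named by rule: those called in any comparison, those with the largest and smallest centred ratio in each class, and at most 6 called genes per further list. FOXM1, shown without a call, was chosen after its values were seen, as were the 4 printed promoters. Alternatives covered the pseudocount, filters, GC bins, the transcript used, matching on length, scaling, the q-value limit and the adjustment.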

Additional observations from a re-analysis of the deposited data

How the results depend on the processing

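No paired analysis was possible because the table gives 1 value per group, and no replicate was left out for the same reason. Depth is unknown, so it sets no stated limit for any single value. Of 88 alternative values for the groups of members, 77 stayed within the limits set for a change, and none changed direction. All 370 alternative values for single called genes kept their direction.

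Counts of called members moved with the limit. At an unadjusted p under 0.05 they were 28 with DAC in siLuc, 22 with DAC in siStau1, 5 for siStau1 over siLuc in DMSO, 11 in DAC and 10 for siStau1 DAC over siLuc DMSO. At a q-value under 0.01 they were 8 with DAC in siStau1, 2 for siStau1 over siLuc in DAC and 0 for siStau1 DAC over siLuc DMSO. Adjusted within each comparison alone, the last 2 were 0 and 1.

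Over 10 alternatives, including matching on GC content and level together, which was added after seeing the data, the GC-centred medians ran from -0.82 to -0.51 and from -0.78 to -0.48 for DAC in siLuc and siStau1. They ran from 0.11 to 0.20 and from 0.17 to 0.34 for siStau1 over siLuc in DMSO and DAC. The 0.17 came with GC content of the coding sequence.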
